A study of Homo sapiens with 9 samples.

Results

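Splicing regulators are RNA-binding proteins that decide which exons of a pre-mRNA are joined, and 40 of their genes were followed here across 3 human mammary epithelial cell lines. The 40 genes were listed by name, with no measured value in the rule but with earlier results of these data known, from a table of 62666 genes, and 772 of 252876 listed transcripts belong to them. They comprise 12 SR proteins (SRSF1 to SRSF12), 2 SR-like TRA2 proteins, 16 heterogeneous nuclear ribonucleoproteins (hnRNPs), 3 polypyrimidine tract binding (PTB) proteins, 3 muscleblind-like (MBNL) proteins, and RBFOX2, QKI, CELF1 and RBM39. Polyadenylated RNA was sequenced from MCF10A, MCF10AT1 and MCF10Ca1a, with 3 libraries per line, to follow expression along a model of breast cancer progression. MCF10A is an immortalised, non-tumorigenic line; MCF10AT1 was derived from it by transformation with an activated HRAS gene; MCF10Ca1a is a malignant line of the same lineage, obtained through xenografts. MCF10A and MCF10Ca1a were grown in medium with 5% horse serum and MCF10AT1 in medium with 2.5%, and insulin, epidermal growth factor, hydrocortisone, cholera toxin and glutamine were given to all 3 lines. Each state is represented by 1 line, so line, state and, for MCF10AT1, serum cannot be told apart.

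SR proteins generally bind exonic enhancers and recruit the splicing machinery, whereas many hnRNPs and the PTB proteins bind silencers and promote skipping. MBNL and CELF proteins often act against each other on the same exons, and RBFOX2 and QKI act according to where they bind around an exon. Many genes of these families limit their own level: splicing in an exon with an early stop codon (a poison exon) sends the transcript to nonsense-mediated decay (NMD). SRSF1 is known to transform mammary epithelial cells when overproduced. The results below cover how much RNA each gene gave and how that RNA was divided among coding, NMD-annotated and intron-retaining transcripts.

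Stop-bearing exons of 7 of the genes are shown first, because the transcripts that carry them are those whose shares of the gene are followed below. Each sequence runs 5′ to 3′ on the gene's strand from the first base of the exon to its stop codon, which is in capitals. Transcript models are those of GENCODE 29 on GRCh38, and the coding transcripts of the gene that span the exon's position hold none of its bases. The exons of SRSF3-203 (456 bases, sequence at chr6:36599821-36599854 on the plus strand) and SRSF7-204 (449 bases, chr2:38749319-38749346 on the minus strand) reach a stop within their first 34 and 28 bases. The exon of SRSF6-202 (268 bases, chr20:43459153-43459304 on the plus strand) runs 152 bases to its stop, and that of TRA2B-206 (276 bases, chr3:185931772-185931852 on the minus strand) runs 81. Shorter cassette exons hold the stop in HNRNPL-202 (70 bases, chr19:38841624-38841682 on the minus strand) and HNRNPLL-201 (83 bases, chr2:38577956-38578002 on the minus strand). RBM39-206 and RBM39-216 share an exon of 73 bases (chr20:35740526-35740597 on the minus strand). Stop-bearing exons of HNRNPU-208 and RBM39-236 are not printed, and no coding transcript of HNRNPU spans the position of the former. Transcripts with the HNRNPU-208 exon held 4.20% of the gene's counts in MCF10A, 1.80% in MCF10AT1 and 1.44% in MCF10Ca1a, a lower share. RBM39-236 held 2.76, 2.93 and 4.01% in the same order.
SRSF3-203: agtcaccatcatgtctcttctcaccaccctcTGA
SRSF6-202: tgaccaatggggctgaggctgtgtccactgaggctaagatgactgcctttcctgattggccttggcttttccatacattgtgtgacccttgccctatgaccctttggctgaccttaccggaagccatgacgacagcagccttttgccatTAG
SRSF7-204: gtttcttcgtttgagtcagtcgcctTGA
TRA2B-206: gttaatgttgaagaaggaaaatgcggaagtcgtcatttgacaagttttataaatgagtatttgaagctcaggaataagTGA
HNRNPL-202: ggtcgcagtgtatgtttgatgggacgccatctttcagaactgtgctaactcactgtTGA
HNRNPLL-201: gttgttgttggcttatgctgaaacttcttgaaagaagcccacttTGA
RBM39-206: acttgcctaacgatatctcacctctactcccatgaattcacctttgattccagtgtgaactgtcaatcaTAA

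Estimated counts summed to 64226359 to 69508842 per library in MCF10A, 62898823 to 68105862 in MCF10AT1 and 32930503 to 35243012 in MCF10Ca1a. The labels do not say whether the 3 libraries of a line came from separate cultures, so p-values measure the spread between these libraries, which may be technical. MCF10A replicate 1 stood apart from replicates 2 and 3, with 2.81% of all counts on intron-retaining transcripts against 3.27% and 3.47%. None of 8 epithelial markers (EPCAM, CDH1, TP63 and 5 keratins) was at or under 3 counts throughout a line, and their summed level was 1796 to 2496, 2683 to 3055 and 2191 to 2270 TPM (transcripts per 1000000, a length-corrected level) in MCF10A, MCF10AT1 and MCF10Ca1a. Of 7 fibroblast markers 4, 2 and 4 were at or under 3 counts in every library of the 3 lines in that order (COL1A2 and COL3A1 in all), with summed levels of 6.43 to 7.23, 27.7 to 31.5 and 1.94 to 2.33 TPM. The immune markers PTPRC, CD3E and LYZ were at or under 3 counts in every library, and the whole immune list, CD68 included, summed to 8.35 to 13.0, 2.65 to 2.71 and 30.2 to 33.1 TPM. Endothelial markers summed to 0.674 to 0.901 TPM in MCF10A, 0.868 to 1.32 in MCF10AT1 and 15.6 to 20.8 in MCF10Ca1a, where CDH5, VWF and KDR were at or under 3 counts and PECAM1 was not. The summed level of 6 proliferation markers was 1529 to 1575 TPM in MCF10A, 1232 to 1291 in MCF10AT1 and 361 to 363 in MCF10Ca1a. The part of these markers in the results below was not tested.

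The splicing regulators took a smaller part of the RNA in MCF10Ca1a than in the other lines. Together the 40 genes held 1.30 to 1.42% of the counts in MCF10A, 1.21 to 1.26% in MCF10AT1 and 0.841 to 0.865% in MCF10Ca1a, ranges that do not overlap. Against MCF10A, 31 of the 40 were lower in MCF10Ca1a and 8 were higher (edgeR's quasi-likelihood test, Benjamini-Hochberg adjusted p under 0.05 over the 17910 genes tested). Over all genes tested 80.9% were called in that comparison, 41.9% lower and 39.0% higher, so the count of lower members is to be read against a background in which 41.9% of genes were lower. The median log2 change of the 40 was -0.77, against -0.05 over all genes tested. At least 2-fold lower were 15 of the 40, against 21.7% of all genes. Less RNA per cell and fewer cells of a kind cannot be told apart in these bulk libraries.

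MCF10AT1 lay closer to MCF10A. Of the 40 genes 16 were lower and 8 higher in MCF10AT1 (61.6% of all genes called, 31.8% lower and 29.8% higher), with a median log2 change of -0.13 against -0.00 over all genes. Only SRSF12 was at least 2-fold lower in MCF10AT1, against 8.64% of all genes. Between MCF10Ca1a and MCF10AT1, 32 members were lower and 4 higher (78.4% of all genes called, 40.3% lower and 38.0% higher), with a median of -0.62 against -0.04. One of these 32, SRSF12, was at or under 3 counts in all libraries of both lines. Without MCF10A replicate 1, 17 were lower and 10 higher in MCF10AT1, 31 lower and 8 higher in MCF10Ca1a against MCF10A, and 34 lower and 4 higher in MCF10Ca1a against MCF10AT1. Each pair of these comparisons shares a line, so the 3 sets of calls are not independent. Per-library levels in CPM (counts per 1000000 of the TMM-scaled total) did not overlap between MCF10Ca1a and MCF10A for 39 of the 40 genes, against 81.5% of all genes; the numbers were 26 (65.4%) for MCF10AT1 against MCF10A and 39 (81.9%) for MCF10Ca1a against MCF10AT1.

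**Figure D1:**
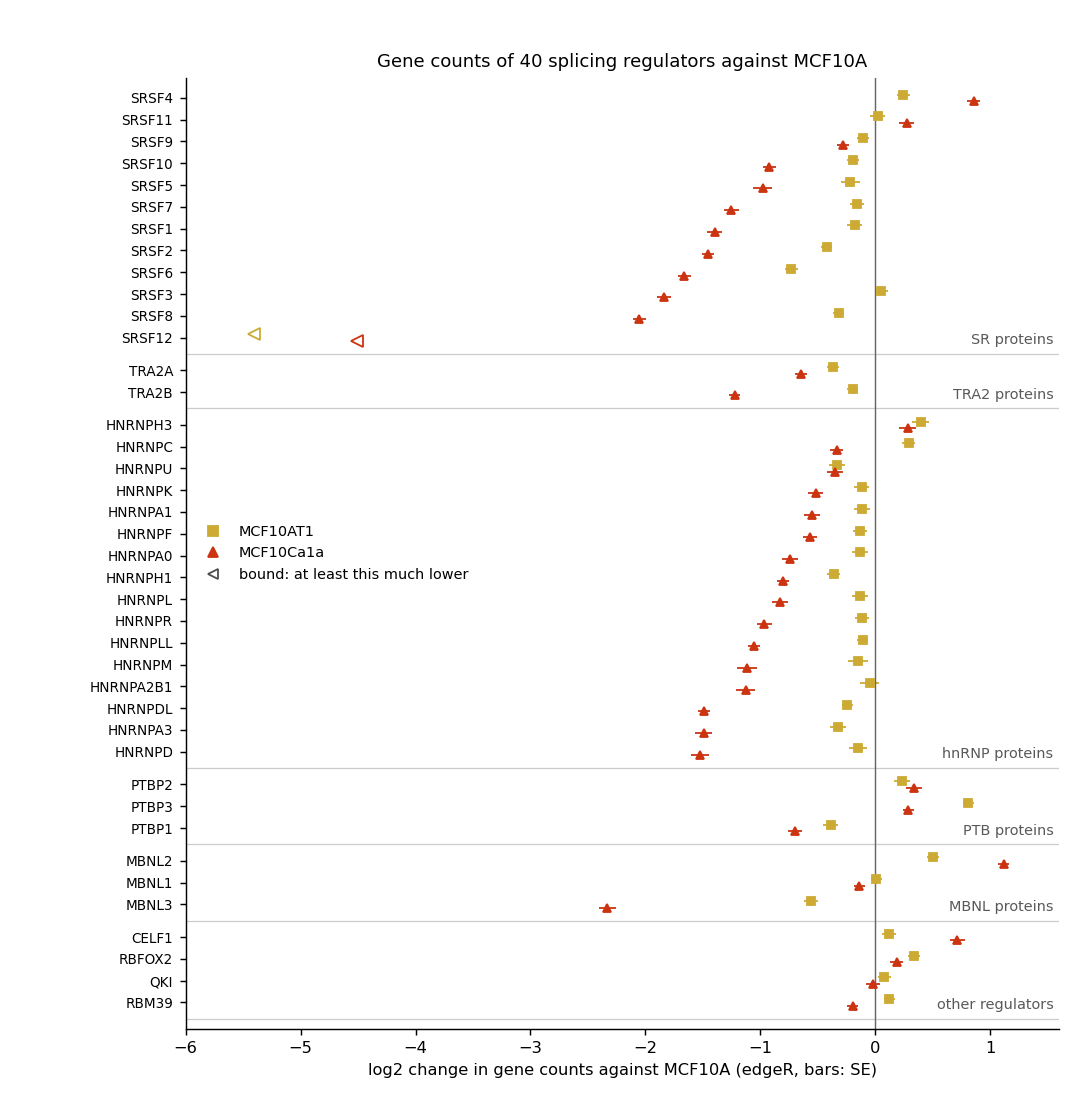
Log2 change in MCF10AT1 and in MCF10Ca1a against MCF10A (horizontal axis, edgeR) for the 40 splicing regulators, one per line on the vertical axis, with bars of 1 standard error; open triangles mark SRSF12, drawn at its lower bounds because its counts were at or under 3. Of the MCF10Ca1a points most lie left of 0, and those of SRSF4, MBNL2 and CELF1 lie furthest to the right.

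The scale bears on the smaller changes. On log2(TPM + 1), which weighs each gene by the length of its transcripts, the median over all genes tested moved by -0.07, 0.06 and 0.13 in the comparisons of MCF10AT1 with MCF10A, MCF10Ca1a with MCF10A and MCF10Ca1a with MCF10AT1. Set against the all-gene median of the same scale, the 40 genes stood at -0.19, -0.66 and -0.36 in these comparisons, at -0.15, -0.71 and -0.52 on log2(TPM + 0.1), and at -0.13, -0.72 and -0.57 on counts. On log2(TPM + 1) 4 members were higher and 23 lower in MCF10AT1 than in MCF10A, beside 19.2% and 34.0% of all genes. In MCF10Ca1a against MCF10AT1 8 were higher and 21 lower, beside 45.8% and 28.5%. Between MCF10Ca1a and MCF10A the same scale gave 8 higher and 27 lower, beside 42.2% and 34.5%, and SRSF9, HNRNPU, MBNL1 and RBM39 were no longer called. Of the members called on counts between MCF10Ca1a and MCF10AT1, SRSF9, TRA2A, PTBP1, MBNL1 and RBFOX2 had the opposite direction on TPM. HNRNPH3, HNRNPU and QKI, not called on counts there (-0.11, -0.02 and -0.10), also had higher mean TPM in MCF10Ca1a than in MCF10AT1.

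In MCF10A the most abundant members per transcript length were hnRNPs. HNRNPA1 had a mean of 1929 ± 251 TPM (SD, n = 3), followed by HNRNPC at 888 ± 14.0, HNRNPK at 729 ± 92.1, SRSF3 at 654 ± 4.31 and HNRNPA2B1 at 613 ± 127. SRSF3 differs from HNRNPK by less than the SD of HNRNPK, and from HNRNPA2B1 by less than the SD of HNRNPA2B1. PTBP2 (8.28 TPM), MBNL3 (7.27) and SRSF12 (1.40) were the scarcest. In MCF10Ca1a the level of SRSF3 was 197 ± 6.16 TPM, below that of HNRNPA1 at 1432 ± 3.88 and HNRNPC at 814 ± 3.89.

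Of the 12 SR protein genes 10 were lower in MCF10Ca1a than in MCF10A, and SRSF4 and SRSF11 were higher, beside 41.9% and 39.0% of all genes. The family median log2 change was -1.33, which does not depend on whether SRSF12 is placed at its fitted value or at its bound. In MCF10AT1 against MCF10A 8 were lower and 1 was higher, beside 31.8% and 29.8% of all genes, with a median of -0.19. SRSF3, a small SR protein known for its own poison exon, stood at 439, 471 and 499.8 CPM in MCF10A, 488, 500.3 and 473 CPM in the MCF10AT1 libraries and 129, 131 and 134 CPM in those of MCF10Ca1a. All 3 MCF10Ca1a libraries lay far below the 6 others, while MCF10A and MCF10AT1 overlapped. The log2 change of SRSF3 in MCF10Ca1a was -1.84 ± 0.06 (SE, n = 3 libraries per line) against MCF10A, or 3.57-fold lower (adjusted p = 3.0e-12), and 0.05 ± 0.06 in MCF10AT1 (adjusted p = 0.45). SRSF6, another SR protein with a conserved poison exon, was lower in MCF10AT1 and lower again in MCF10Ca1a. It stood at 283, 296 and 307 CPM in MCF10A, 181, 176 and 177 CPM in the MCF10AT1 libraries and 97.8, 93.9 and 88.2 CPM in those of MCF10Ca1a, with no overlap between any of the lines. Its log2 change against MCF10A was -0.73 ± 0.05 in MCF10AT1 and -1.66 ± 0.06 in MCF10Ca1a (adjusted p = 6.1e-08 and 4.3e-12).

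SRSF8, a gene close in sequence to SRSF2, so that reads could be divided between the pair, had the largest called fall among the SR genes above the count floor in every line. It stood at 59.4, 57.3 and 56.2 CPM in MCF10A, 46.6, 47.3 and 44.6 CPM in the MCF10AT1 libraries and 13.7, 13.3 and 14.6 CPM in those of MCF10Ca1a, and the lines did not overlap. It was 4.15-fold lower in MCF10Ca1a than in MCF10A (log2 change -2.05 ± 0.06, adjusted p = 4.6e-13). SRSF2, which activates exons through purine- and cytosine-containing enhancers, stood at 356, 367 and 374 CPM in MCF10A, 272, 280.1 and 266 CPM in the MCF10AT1 libraries and 136, 135 and 128 CPM in those of MCF10Ca1a. Each line again occupied its own range, and the log2 change in MCF10Ca1a was -1.46 ± 0.05 (adjusted p = 7.5e-12). SRSF1, the founding SR protein, stood at 438, 403 and 389 CPM in MCF10A, 372, 366 and 348 CPM in the MCF10AT1 libraries and 161, 161 and 144 CPM in those of MCF10Ca1a. Its MCF10Ca1a libraries lay far below the others and the lines did not overlap, with a log2 change against MCF10A of -1.40 ± 0.07 (adjusted p = 1.2e-10). In MCF10AT1 the call of SRSF1 (log2 change -0.18, adjusted p = 0.026) was lost when MCF10A replicate 2, MCF10AT1 replicate 2 or MCF10AT1 replicate 3 was left out (adjusted p 0.051 to 0.086).

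SRSF7, which also regulates polyadenylation site choice, stood at 246, 278 and 297 CPM in MCF10A, 243, 252 and 241 CPM in the MCF10AT1 libraries and 115, 115 and 114 CPM in those of MCF10Ca1a. The MCF10Ca1a libraries were nearly equal and all below the rest, and the log2 change was -1.25 ± 0.07 (adjusted p = 4.0e-10). The small difference of SRSF7 between MCF10AT1 and MCF10A (log2 change -0.16, adjusted p = 0.046) was lost in 8 of the 9 fits that left out 1 library, all but that without MCF10A replicate 1 (adjusted p 0.064 to 0.17). SRSF5 fell by 0.98 on the log2 scale in MCF10Ca1a, SRSF10 by 0.92 and SRSF9 by 0.28, against MCF10A. The SRSF5 call in MCF10AT1 (log2 change -0.22, adjusted p = 0.032) did not hold without any 1 of MCF10A replicates 2 and 3 and the 3 MCF10AT1 libraries (adjusted p 0.053 to 0.10).

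SRSF12, an SR protein related to SRSF10, was detected in MCF10A alone above the floor of 3 counts per library. Its rounded counts were 110, 129 and 150 in MCF10A, 3, 2 and 3 in MCF10AT1, and 0 in all 3 MCF10Ca1a libraries. Taken at 3 counts per library, the level in MCF10AT1 was at least 42.3-fold lower and that in MCF10Ca1a at least 22.7-fold lower than in MCF10A. The bound for MCF10Ca1a is the smaller because its libraries are shallower, and no fold is given between MCF10Ca1a and MCF10AT1. SRSF4, one of the 2 SR genes that rose in MCF10Ca1a, stood at 95.6, 88.9 and 84.4 CPM in MCF10A, 109, 109 and 101 CPM in the MCF10AT1 libraries and 157, 161 and 169 CPM in those of MCF10Ca1a. No 2 lines overlapped, and the log2 changes against MCF10A were 0.24 ± 0.06 and 0.86 ± 0.06 in MCF10AT1 and MCF10Ca1a (adjusted p = 0.0025 and 7.8e-09). The MCF10AT1 rise of SRSF4 was not called on log2(TPM + 1) (adjusted p = 0.37). SRSF11, an SR-related protein, rose by 0.27 on the log2 scale in MCF10Ca1a (adjusted p = 0.0015).

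**Figure D2:**
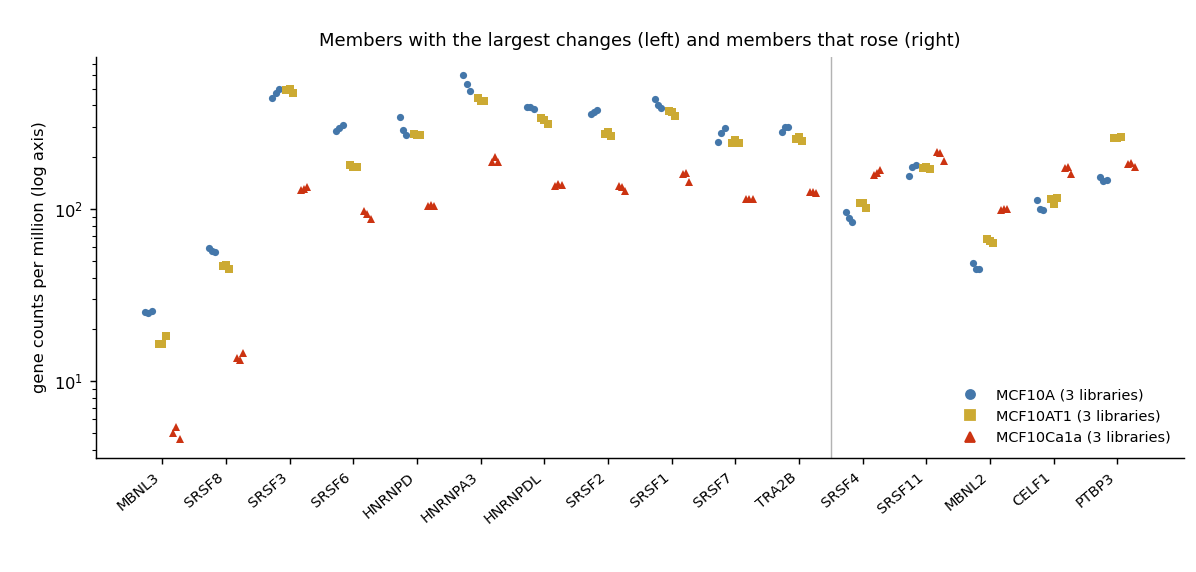
CPM of each library (log axis) for named splicing regulators, with the genes lower in MCF10Ca1a on the left and SRSF4, SRSF11, MBNL2, CELF1 and PTBP3 on the right; points are libraries, coloured by line. The MCF10Ca1a points of SRSF3, SRSF8 and MBNL3 sit well below those of both other lines, and PTBP3 is highest in MCF10AT1.

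Both TRA2 genes, whose proteins bind GA-rich enhancers beside SR proteins, were lower than in MCF10A in both other lines. TRA2B stood at 280.0, 298 and 299 CPM in MCF10A, 257, 261 and 249 CPM in the MCF10AT1 libraries and 126, 126 and 124 CPM in those of MCF10Ca1a. The lines did not overlap, and the log2 change in MCF10Ca1a against MCF10A was -1.22 ± 0.05 (adjusted p = 3.5e-11). TRA2A changed by -0.65 ± 0.05 in the same comparison. Between MCF10Ca1a and MCF10AT1 TRA2B was lower on both scales, and the TRA2A change of -0.28 on counts was 0.14 on log2(TPM + 1), and both were called in their opposite directions (adjusted p = 0.00030 in edgeR and 0.022 in limma).

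Against MCF10A, 15 of the 16 hnRNP genes were lower in MCF10Ca1a and HNRNPH3 was higher, beside 41.9% and 39.0% of all genes, at a median log2 change of -0.82. In MCF10AT1 4 were lower and 2 higher, beside 31.8% and 29.8% of all genes, with a median of -0.13. On log2(TPM + 1) 10 were lower and 1 higher, beside 34.0% and 19.2%, with a median of -0.26. HNRNPD (AUF1), which also controls the decay of AU-rich mRNAs, stood at 344, 287 and 269 CPM in MCF10A, 274, 268 and 268 CPM in the MCF10AT1 libraries and 104, 106 and 104 CPM in those of MCF10Ca1a. MCF10A and MCF10AT1 overlapped, the MCF10Ca1a libraries lay far below both, and the log2 change was -1.52 ± 0.08 (adjusted p = 3.0e-10). HNRNPDL, its close paralog, stood at 389, 390.3 and 383 CPM in MCF10A, 339, 331 and 313 CPM in the MCF10AT1 libraries and 136, 141 and 138 CPM in those of MCF10Ca1a. Without overlap between lines, HNRNPDL was 2.81-fold lower in MCF10Ca1a than in MCF10A (log2 change -1.49 ± 0.05, adjusted p = 5.9e-12). HNRNPA3, an A/B-type hnRNP, stood at 598, 532 and 488 CPM in MCF10A, 441, 427 and 424 CPM in the MCF10AT1 libraries and 187, 201 and 187 CPM in those of MCF10Ca1a. The lines did not overlap, and the log2 changes against MCF10A were -0.33 ± 0.07 in MCF10AT1 and -1.49 ± 0.07 in MCF10Ca1a (adjusted p = 0.0011 and 1.5e-10).

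The abundant hnRNPs changed less than these 3. HNRNPA1, a silencer-binding protein and the most abundant member, changed by -0.55 ± 0.07 in MCF10Ca1a against MCF10A, HNRNPK by -0.52 ± 0.07 and HNRNPC, which binds uridine tracts, by -0.33 ± 0.06. HNRNPA2B1 (-1.13), HNRNPM (-1.12), HNRNPLL (-1.06), HNRNPR (-0.97), HNRNPL (-0.83), HNRNPH1 (-0.80), HNRNPA0 (-0.74) and HNRNPF (-0.57) were also lower on the log2 scale. HNRNPU, also called scaffold attachment factor A, had log2 changes against MCF10A of -0.34 in MCF10AT1 and -0.35 in MCF10Ca1a, both called on counts, and the difference between the latter lines was -0.02 ± 0.07 (adjusted p = 0.84). On log2(TPM + 1) its changes were -0.46 in MCF10AT1 and an uncalled -0.15 in MCF10Ca1a. There HNRNPU was called higher in MCF10Ca1a than in MCF10AT1 (0.31 ± 0.11, limma, adjusted p = 0.029). HNRNPH3 rose by 0.39 ± 0.08 in MCF10AT1 and 0.28 ± 0.08 in MCF10Ca1a. On log2(TPM + 1) the MCF10AT1 rise of HNRNPH3 was not called (adjusted p = 0.067).

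The 3 PTB genes went different ways. PTBP1, the widespread repressor of neuronal exons, fell by 0.39 in MCF10AT1 and 0.70 in MCF10Ca1a on the log2 scale (adjusted p = 0.00013 and 1.9e-07). PTBP3 stood at 153, 145 and 147 CPM in MCF10A, 258, 260.1 and 261 CPM in the MCF10AT1 libraries and 182, 185 and 175 CPM in those of MCF10Ca1a. It was highest in MCF10AT1, with no overlap, at a log2 change of 0.81 ± 0.05 against MCF10A (adjusted p = 6.3e-09). Its difference between MCF10Ca1a and MCF10AT1, called on counts, was not called on log2(TPM + 1) (limma, adjusted p = 0.28). PTBP2, the neuronal paralog that PTBP1 represses, was at 11.3 ± 0.907, 13.2 ± 0.138 and 14.2 ± 0.486 CPM (SD, n = 3) in the order MCF10A, MCF10AT1, MCF10Ca1a. Both rises of PTBP2 against MCF10A passed the test on unscaled counts. The rise in MCF10AT1 was not called on length-scaled counts (edgeR, adjusted p = 0.10), on scaled counts (adjusted p = 0.098) or on log2(TPM + 1) (limma, adjusted p = 0.58).

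The 3 MBNL genes diverged. MBNL3 stood at 25.3, 24.8 and 25.6 CPM in MCF10A, 16.5, 16.4 and 18.4 CPM in the MCF10AT1 libraries and 5.03, 5.44 and 4.60 CPM in those of MCF10Ca1a. It was the member with the largest called fall above the count floor, 5.03-fold in MCF10Ca1a against MCF10A (log2 change -2.33 ± 0.07, adjusted p = 2.4e-12), and no lines overlapped. MBNL2 moved the other way, at 48.6, 45.0 and 44.7 CPM in MCF10A, 66.8, 65.3 and 63.8 CPM in the MCF10AT1 libraries and 99.1, 100.5 and 99.9 CPM in those of MCF10Ca1a. The lines stood apart in the order MCF10A, MCF10AT1, MCF10Ca1a, and MBNL2 was 2.17-fold higher in the last (log2 change 1.12 ± 0.05, adjusted p = 7.0e-11). MBNL1, the main MBNL gene of most tissues, changed by -0.14 ± 0.05 (adjusted p = 0.016), a call that was lost without MCF10Ca1a replicate 3 (adjusted p = 0.080). It was also lost with DESeq2 size factors in edgeR (adjusted p = 0.071).

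CELF1, which opposes MBNL proteins on muscle exons, rose in MCF10Ca1a. It stood at 113, 99.9 and 98.5 CPM in MCF10A, 115, 107 and 115 CPM in the MCF10AT1 libraries and 174, 175 and 161 CPM in those of MCF10Ca1a. MCF10A and MCF10AT1 overlapped, all 3 MCF10Ca1a libraries were higher, and the log2 change against MCF10A was 0.71 ± 0.06 (adjusted p = 1.1e-07). RBFOX2, a regulator of exons that differ between epithelial and mesenchymal cells, was highest in MCF10AT1 (0.34 against MCF10A, and 0.18 in MCF10Ca1a). The rise in MCF10Ca1a against MCF10A was not called with no filter on low counts (edgeR, adjusted p = 0.16). The RBFOX2 difference between MCF10Ca1a and MCF10AT1 was -0.16 on counts and 0.14 on log2(TPM + 1), and its call was lost without MCF10AT1 replicate 1 or MCF10Ca1a replicate 3 (adjusted p 0.054 to 0.060). The DESeq2 Wald test (adjusted p = 0.059) and edgeR with DESeq2 size factors (adjusted p = 0.081) did not call it either. RBM39, a U2AF-related factor, changed by -0.20 in MCF10Ca1a against MCF10A on counts and by 0.03 on log2(TPM + 1). Its rise in MCF10AT1 (0.12, adjusted p = 0.049) was lost without any 1 of 7 libraries, all but MCF10A replicates 1 and 3 (adjusted p 0.052 to 0.12). The gene counts of QKI passed no edgeR test, with log2 changes of 0.08 ± 0.06 and -0.02 ± 0.06 against MCF10A. On log2(TPM + 1) QKI was higher in MCF10Ca1a than in MCF10AT1 (0.21 ± 0.08, limma, adjusted p = 0.029), and this was its only call on that scale.

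Transcript usage, the share of a gene's estimated counts on each of its transcripts, differed between MCF10Ca1a and both other lines in most members. At least 2 transcripts could be tested in 38 of the 40 genes, all but HNRNPA0 and SRSF12. In MCF10Ca1a against MCF10A, 36 of the 38 were called (limma on the log2 ratio between each transcript and its gene's other transcripts, Simes p per gene, Benjamini-Hochberg adjusted over 11802 genes), against 50.0% of all genes tested. SRSF9 and PTBP1 were the 2 that were not. Against MCF10AT1, 33 were called, with 42.9% of all genes called; SRSF9, HNRNPA1, HNRNPA3, PTBP2 and RBFOX2 were not. By edgeR's diffSpliceDGE 28 members were called against MCF10A and 21 against MCF10AT1, where that method called 20.6% and 15.9% of all genes. Without MCF10A replicate 1 the counts were 34 and 34. A transcript share moved by at least 10 percentage points in 23 of the called members against MCF10A and 20 against MCF10AT1, where 27.8% and 22.4% of all genes did so. The median of the largest share change per gene was 12.4 points for the members and 7.97 for all genes in MCF10Ca1a against MCF10A. The members tested were more abundant than the rest (median of mean levels 205 against 31.4 CPM), and no comparison matched on abundance was made.

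Between MCF10AT1 and MCF10A usage was called in 11 members (SRSF2, SRSF6, TRA2A, HNRNPA2B1, HNRNPC, HNRNPD, HNRNPDL, HNRNPK, HNRNPM, HNRNPU and QKI), where 10.5% of all genes were called, and 0 members had a call with a share moved by 10 points (4.99% of all genes). By edgeR's diffSpliceDGE 5 members were called, and 5.77% of all genes. The limma count rested on single libraries: it was 6, 5 and 8 without MCF10A replicates 1, 2 and 3, then 5, 3 and 4 without MCF10AT1 replicates 1, 2 and 3, and 7, 9 and 11 without MCF10Ca1a replicates 1, 2 and 3.

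HNRNPDL had the largest share change of the 38. Its NMD-annotated transcript HNRNPDL-202 held 5.39, 5.74 and 5.79% in MCF10A, 8.76, 8.82 and 8.08% in the MCF10AT1 libraries and 49.8, 48.9 and 48.1% in those of MCF10Ca1a of the gene's counts. The 3 MCF10Ca1a libraries agree within 1.71 points and lie far above the 6 others, which also do not overlap between lines. The log2 ratio of HNRNPDL-202 to the rest of the gene changed by 0.64 ± 0.08 in MCF10AT1 against MCF10A (adjusted p = 0.0061). In MCF10Ca1a it changed by 4.0 ± 0.08 against MCF10A (adjusted p = 1.8e-07) and by 3.36 ± 0.08 against MCF10AT1 (adjusted p = 6.1e-07). The level of the transcript was higher while that of the gene was lower: HNRNPDL-202 stood at 21.9 ± 0.752 CPM in MCF10A, 28.0 ± 2.39 in MCF10AT1 and 67.6 ± 1.27 in MCF10Ca1a (SD, n = 3), without overlap. HNRNPDL-202 and the main coding transcript HNRNPDL-206 have the same 903 coding bases, and HNRNPDL-202 differs by an exon of 105 bases after the stop codon, at chr4:82425563-82425667 on the minus strand (GRCh38). HNRNPDL-206 held 53.6% in MCF10A, 48.0% in MCF10AT1 and 20.9% in MCF10Ca1a (adjusted p = 2.1e-05 for MCF10Ca1a against MCF10A).

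SRSF6 showed a like shift. SRSF6-202, with the 268-base exon printed above, held 2.94, 2.80 and 2.83% in MCF10A, 4.60, 4.76 and 4.35% in the MCF10AT1 libraries and 22.9, 22.1 and 23.9% in those of MCF10Ca1a. The share was higher in MCF10Ca1a than in any other library, and the lines did not overlap, with a log2 ratio change of 3.34 ± 0.10 against MCF10A (adjusted p = 1.1e-06). Its level was 8.43 ± 0.237 CPM in MCF10A, 8.14 ± 0.394 in MCF10AT1 and 21.4 ± 0.882 in MCF10Ca1a. The coding transcript SRSF6-201 went from 257 ± 9.79 to 147 ± 1.85 and 57.7 ± 3.37 CPM in the same order, and held 87.2% in MCF10A, 82.7% in MCF10AT1 and 61.9% in MCF10Ca1a (log2 ratio change -2.07 ± 0.06 in MCF10Ca1a, adjusted p = 1.2e-06). Its shares were 87.6, 87.0 and 86.9% in MCF10A, 82.5, 83.3 and 82.5% in the MCF10AT1 libraries and 62.5, 61.5 and 61.7% in those of MCF10Ca1a, with no overlap between lines. In MCF10AT1 against MCF10A, SRSF6 was among the 11 genes called, with an adjusted p of 0.0053 in limma.

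The stop-bearing exons of SRSF3 and SRSF7 were at low shares in MCF10A and MCF10AT1. SRSF3-203 held 1.28, 1.63 and 1.65% in MCF10A, 1.84, 1.58 and 1.75% in the MCF10AT1 libraries and 12.1, 11.8 and 11.5% in those of MCF10Ca1a. The 6 libraries of the other lines overlapped, and all 3 MCF10Ca1a libraries lay above them, with a log2 ratio change of 3.13 ± 0.13 against MCF10A (adjusted p = 6.1e-06). SRSF7-204 held 2.58, 3.29 and 3.81% in MCF10A, 3.94, 2.74 and 3.49% in the MCF10AT1 libraries and 20.4, 17.6 and 17.0% in those of MCF10Ca1a. Its MCF10Ca1a shares were again apart from the rest, with a change of 2.77 ± 0.20 (adjusted p = 7.7e-05). Another SRSF7 transcript carries the same exon, and both together held 3.33, 3.59 and 18.7% in the 3 lines. The CPM of both NMD transcripts was higher in MCF10Ca1a although the genes were lower: 7.18 ± 1.39 in MCF10A and 15.5 ± 0.0886 in MCF10Ca1a for SRSF3-203, with 8.93 ± 2.50 and 21.0 ± 2.13 for SRSF7-204. SRSF3 also had an intron-retaining transcript, SRSF3-207, at 17.1 ± 0.848% in MCF10A, 18.0 ± 0.892% in MCF10AT1 and 30.3 ± 1.97% in MCF10Ca1a of the gene (SD, n = 3; adjusted p = 0.00019 in MCF10Ca1a against MCF10A).

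TRA2B, SRSF8 and HNRNPL showed smaller shifts toward NMD-annotated transcripts. TRA2B-206 held 29.1 ± 1.16% in MCF10A, 27.2 ± 1.27% in MCF10AT1 and 35.0 ± 1.25% in MCF10Ca1a, and the 3 TRA2B transcripts with its stop exon together held 31.1 ± 0.554, 29.6 ± 0.901 and 38.6 ± 1.04%. Transcripts with the exon thus held a large part of the TRA2B counts in every line. The TRA2B-206 call against MCF10A (adjusted p = 0.014) was lost without MCF10A replicate 2 (adjusted p = 0.052). SRSF8-202 held 9.86 ± 1.15% in MCF10A, 10.6 ± 0.887% in MCF10AT1 and 19.6 ± 0.704% in MCF10Ca1a (adjusted p = 0.0013) and HNRNPL-202 held 1.18 ± 0.191% in MCF10A, 1.90 ± 0.190% in MCF10AT1 and 4.02 ± 0.414% in MCF10Ca1a (adjusted p = 0.00021), both in MCF10Ca1a against MCF10A. HNRNPLL-201 held 17.8, 19.6 and 18.1% in MCF10A, 16.0, 12.5 and 13.8% in the MCF10AT1 libraries and 28.0, 19.8 and 21.9% in those of MCF10Ca1a. Its MCF10Ca1a shares were spread more widely than those of the other lines, and the difference from MCF10A did not pass the test (adjusted p = 0.20); that from MCF10AT1 did (adjusted p = 0.022), but not without MCF10AT1 replicate 2 or 3 (adjusted p 0.068 to 0.075).

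In RBM39 one NMD-annotated transcript took the place of another that carries the same stop exon. RBM39-206 held 11.2, 12.3 and 12.6% in MCF10A, 10.4, 11.6 and 10.2% in the MCF10AT1 libraries and 0, 0 and 0% in those of MCF10Ca1a, and RBM39-216 held 0, 0 and 0% in MCF10A, 0, 0 and 0% in the MCF10AT1 libraries and 10.4, 10.3 and 10.5% in those of MCF10Ca1a. The first was listed at 0 in every MCF10Ca1a library and the second at 0 in every other library. Both shifts passed the test against MCF10A (adjusted p = 3.9e-08 and 4.5e-06). The 9 RBM39 transcripts with that exon together held 12.6 ± 0.938, 11.7 ± 0.697 and 11.3 ± 0.0717% in MCF10A, MCF10AT1 and MCF10Ca1a.

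**Figure D3:**
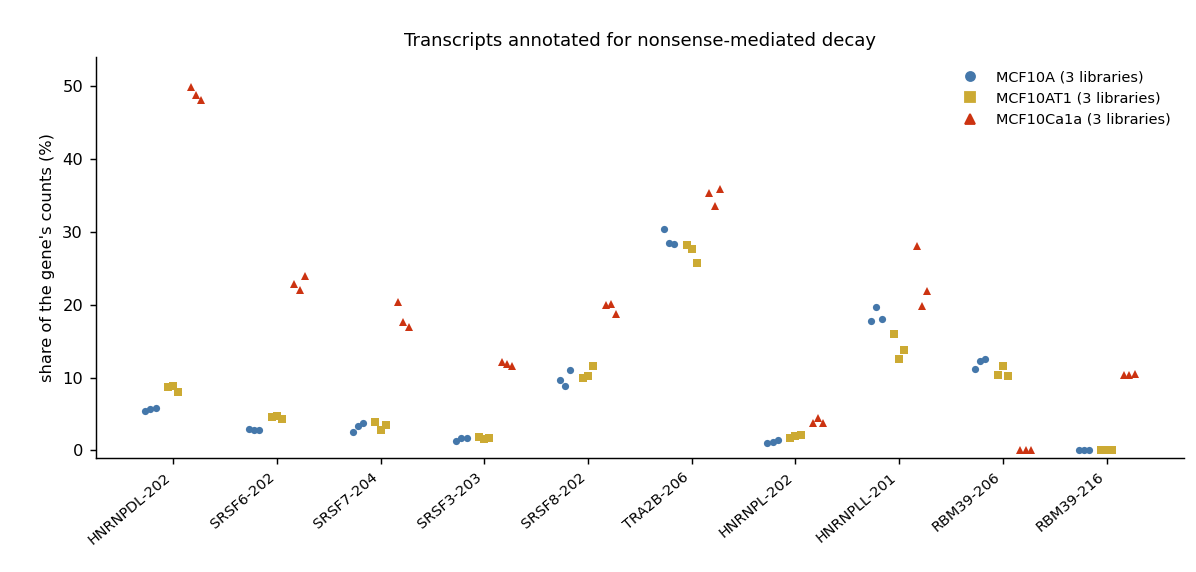
Share of the gene's estimated counts (%, vertical axis) on NMD-annotated transcripts of splicing regulators in each library; points are libraries, coloured by line. HNRNPDL-202, SRSF6-202, SRSF7-204 and SRSF3-203 are higher in all 3 MCF10Ca1a libraries than in the 6 others, and RBM39-206 and RBM39-216 exchange places.

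The transcripts annotated as NMD, non-stop decay or retained intron were then summed per gene as the nonproductive class and set against the coding transcripts. Shares are given as percent of all counts of the gene. Longer transcripts give more counts per molecule, so these are not shares of RNA molecules. Transcript types came from GENCODE 29, whose identifiers covered 567 of the members' 772 transcripts and 84.7% of their counts, so the test was limited to genes with at least 95% of counts on matched transcripts: 5499 genes, among them 19 members. In MCF10Ca1a against MCF10A the nonproductive share was higher in 10 of the 19 and lower in 2 (limma, adjusted p under 0.05), where 24.1% of all genes were called and 15.7% were higher. The median change of the log2 ratio was 0.72 for the members and 0.09 for all genes. No comparison matched on abundance was made for the classes either. Against MCF10AT1, 11 were higher and 2 lower (20.2% of all genes called, 11.0% higher), with medians of 0.47 and -0.02. In MCF10AT1 against MCF10A 1 member, HNRNPDL, was called (1.64% of all genes, 1.29% higher). Without MCF10A replicate 1 the members called were 13, 14 and 1 in these 3 comparisons. Of the 13 called against MCF10AT1, HNRNPL, HNRNPLL, QKI and SRSF4 each lost the call without some single library (adjusted p 0.053 to 0.11). Over all transcripts of the libraries, NMD-annotated ones held 2.25 to 2.29% of counts in MCF10A, 2.30 to 2.32% in MCF10AT1 and 2.52 to 2.58% in MCF10Ca1a, values that rise with the members' shares; their part in the result was not tested.

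The NMD class by itself gave 9 higher and 0 lower of 17 members in MCF10Ca1a against MCF10A, where 24.8% of all genes were called and 18.7% were higher; none was lower at an unadjusted p under 0.05 either (limma). Against MCF10AT1 it gave 11 higher and 0 lower (17.3% called, 12.6% higher), and in MCF10AT1 against MCF10A 2 higher and 0 lower (0.855% called, 0.601% higher), with 4 higher and 1 lower at an unadjusted p under 0.05. Intron-retaining transcripts by themselves gave 7 higher and 3 lower of 15 members in MCF10Ca1a against MCF10A (19.4% of all genes called, 10.2% higher), and 5 higher and 3 lower against MCF10AT1 (16.8% called, 6.85% higher). In MCF10AT1 against MCF10A they gave 0 calls (0.697% of all genes called, 0.488% higher), with 3 higher and 1 lower at an unadjusted p under 0.05.

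The 10 members with a higher nonproductive share in MCF10Ca1a than in MCF10A were SRSF2, SRSF3, SRSF7, SRSF8, SRSF10, TRA2B, HNRNPDL, HNRNPL, HNRNPM and RBM39, and all 10 were called lower in gene counts. So were 17 of the 19 members tested for nonproductive share, with 41.9% of all genes lower, and nothing is read from the overlap. The gene call of RBM39 was lost on length-scaled counts (edgeR, adjusted p = 0.12), on scaled counts (adjusted p = 0.20) and on log2(TPM + 1) (limma, adjusted p = 0.77). HNRNPDL shares were 5.91, 6.01 and 5.94% in MCF10A, 8.86, 8.97 and 8.42% in the MCF10AT1 libraries and 49.9, 49.2 and 48.8% in those of MCF10Ca1a. The log2 ratio of nonproductive to coding counts of HNRNPDL changed by 3.94 ± 0.08 against MCF10A (adjusted p = 2.3e-07). In MCF10AT1 the change was 0.60 ± 0.08 (adjusted p = 0.017), a call lost without MCF10A replicate 2 or 3 or any MCF10AT1 library (adjusted p 0.051 to 0.078). SRSF2 shares were 7.66, 9.04 and 9.65% in MCF10A, 9.03, 8.57 and 9.72% in the MCF10AT1 libraries and 25.6, 26.4 and 24.5% in those of MCF10Ca1a. They overlapped between MCF10A and MCF10AT1 and were clearly higher in MCF10Ca1a, with a log2 ratio change of 1.84 ± 0.12 (adjusted p = 7.7e-05). SRSF3 shares were 37.7, 38.8 and 39.2% in MCF10A, 38.8, 36.2 and 39.1% in the MCF10AT1 libraries and 58.0, 56.0 and 58.2% in those of MCF10Ca1a. In MCF10Ca1a most SRSF3 counts were thus on nonproductive transcripts, with a change of 1.10 ± 0.09 (adjusted p = 0.00019).

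SRSF7 nonproductive shares were 21.3, 23.1 and 25.2% in MCF10A, 24.4, 23.6 and 26.8% in the MCF10AT1 libraries and 39.8, 38.8 and 36.1% in those of MCF10Ca1a. The MCF10Ca1a libraries were above all others (change 1.04 ± 0.13, adjusted p = 0.0013). SRSF8 shares were 9.66, 8.81 and 11.1% in MCF10A, 9.94, 10.2 and 11.6% in the MCF10AT1 libraries and 20.0, 20.1 and 18.8% in those of MCF10Ca1a. The lines MCF10A and MCF10AT1 overlapped and MCF10Ca1a was apart, at a change of 1.17 ± 0.17 (adjusted p = 0.0022). SRSF10, which represses splicing when dephosphorylated, had shares of 10.6, 12.1 and 12.7% in MCF10A, 12.8, 10.9 and 14.9% in the MCF10AT1 libraries and 22.8, 24.9 and 19.9% in those of MCF10Ca1a. These too were separate in MCF10Ca1a (1.26 ± 0.18, adjusted p = 0.0023). Most TRA2B counts were on nonproductive transcripts in all lines, with shares of 69.1, 69.3 and 71.1% in MCF10A, 72.8, 70.9 and 71.1% in the MCF10AT1 libraries and 79.5, 79.4 and 82.7% in those of MCF10Ca1a. The log2 ratio of TRA2B still changed by 0.85 ± 0.12 in MCF10Ca1a (adjusted p = 0.0021).

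RBM39 shares were 35.0, 42.5 and 45.6% in MCF10A, 45.5, 45.6 and 50.9% in the MCF10AT1 libraries and 50.4, 53.0 and 50.5% in those of MCF10Ca1a. MCF10A replicate 1 was the lowest and the lines MCF10AT1 and MCF10Ca1a overlapped. The RBM39 call against MCF10A (change 0.72 ± 0.18, adjusted p = 0.024) was lost without MCF10A replicate 2 or any MCF10Ca1a library (adjusted p 0.053 to 0.065), and with TPM shares (adjusted p = 0.12). HNRNPL had a change of 0.89 ± 0.12 (adjusted p = 0.0020). HNRNPM rose from a share of 0.184% to one of only 1.56% (adjusted p = 0.00042). The 2 members with a lower share were SRSF4, from 8.74 ± 1.84 to 3.38 ± 0.395%, and MBNL1, from 1.73 ± 0.390 to 0.601 ± 0.0356% (adjusted p = 0.0018 and 0.0017). With TPM shares SRSF4 was not called (adjusted p = 0.16). QKI, not called against MCF10A, was nonproductive by annotation at 79.1, 75.0 and 80.4% of counts in the 3 lines.

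A higher share did not always mean more nonproductive RNA. The mean CPM of nonproductive transcripts was higher in MCF10Ca1a than in MCF10A for 5 of the 10 genes (SRSF2, SRSF10, HNRNPDL, HNRNPM and RBM39) and lower for the other 5. HNRNPDL had nonproductive levels of 23.0, 23.4 and 22.7 CPM in MCF10A, 30.0, 29.7 and 26.4 CPM in the MCF10AT1 libraries and 68.0, 69.1 and 67.1 CPM in those of MCF10Ca1a. These lines too stood apart, in the order MCF10A, MCF10AT1, MCF10Ca1a. SRSF3 had 165, 183 and 196 CPM in MCF10A, 189, 181 and 185 CPM in the MCF10AT1 libraries and 74.9, 73.4 and 78.0 CPM in those of MCF10Ca1a. Its nonproductive RNA was lower in every MCF10Ca1a library than in the 6 others, and its coding RNA was lower by more. SRSF2 and SRSF10 had nonproductive levels that overlapped between MCF10Ca1a and MCF10A, at 32.2 ± 4.47 and 34.0 ± 2.22 CPM for SRSF2 in MCF10A and MCF10Ca1a, and 21.1 ± 3.02 and 21.3 ± 3.21 CPM for SRSF10.

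**Figure D4:**
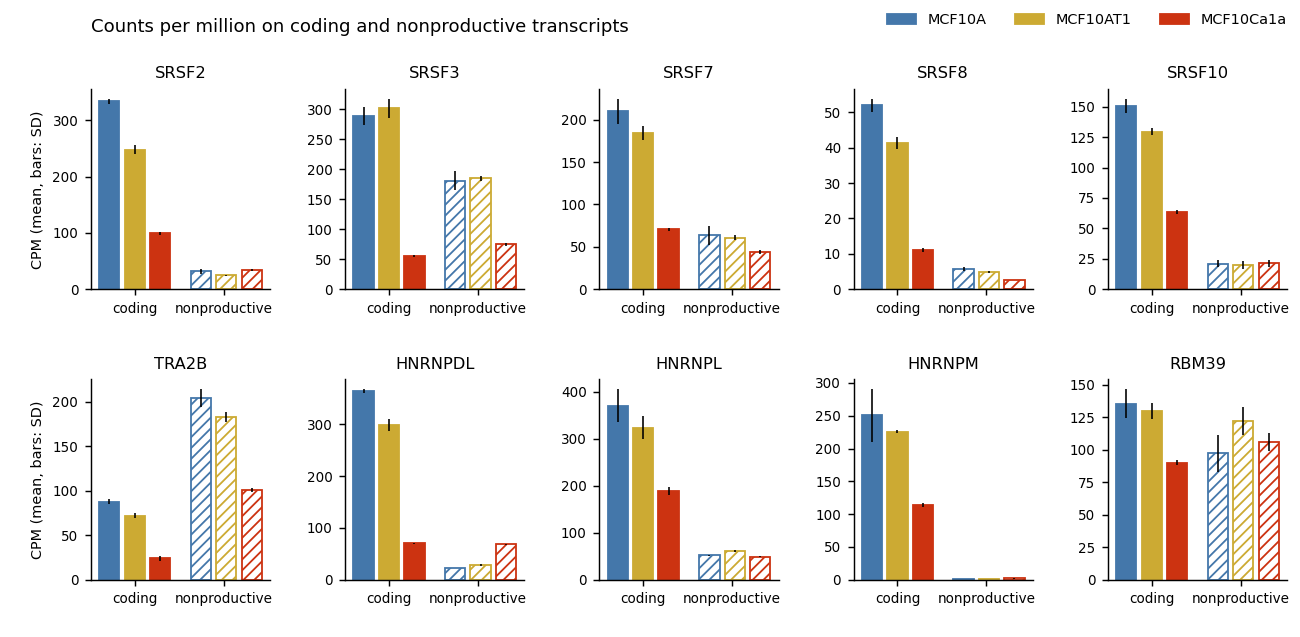
Mean CPM per line (bars from 0, with SD over 3 libraries) of coding transcripts (solid) and nonproductive transcripts (hatched) for 10 splicing regulators. In HNRNPDL the nonproductive bar grows from 23.1 to 68.1 CPM while the coding bar falls; in SRSF3 both bars are lower in MCF10Ca1a.

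Several members lost share on a coding transcript and gained it on another in MCF10Ca1a. Coding bases are compared within each pair, by the GENCODE 29 models. The quantified transcript is of another version than its model for SRSF2-202, HNRNPM-201, TRA2A-201, TRA2A-211, HNRNPH3-201 and MBNL1-204. Shares were not summed over transcripts with the same coding exons, so a net change of the encoded protein was not tested. In HNRNPM, which promotes mesenchymal splicing patterns, HNRNPM-201 lost share and HNRNPM-202, which lacks 117 of its coding bases, gained. HNRNPM-202 held 8.71, 9.40 and 10.6% in MCF10A, 16.0, 14.8 and 15.3% in the MCF10AT1 libraries and 32.3, 32.8 and 29.9% in those of MCF10Ca1a. The lines did not overlap, and the log2 ratio to the rest of the gene changed by 0.78 ± 0.11 in MCF10AT1 and 2.14 ± 0.11 in MCF10Ca1a against MCF10A (adjusted p = 0.0095 and 1.3e-05). HNRNPM-201 held 74.9, 73.7 and 73.8% in MCF10A, 65.6, 67.7 and 67.4% in the MCF10AT1 libraries and 49.5, 48.3 and 54.2% in those of MCF10Ca1a, the mirror image (adjusted p = 5.2e-05 in MCF10Ca1a against MCF10A). In HNRNPC, HNRNPC-211 lost share and HNRNPC-227, which lacks 39 of its coding bases, gained. Other transcripts of the gene have the same coding lengths, as HNRNPC-230 with the 918 bases of HNRNPC-211 and HNRNPC-205 with the 879 of HNRNPC-227. HNRNPC-211 held 30.6, 28.7 and 28.3% in MCF10A, 24.6, 23.7 and 24.3% in the MCF10AT1 libraries and 3.87, 5.62 and 5.09% in those of MCF10Ca1a. The lines did not overlap, and the change was called in MCF10Ca1a (-3.03 ± 0.14, adjusted p = 7.8e-06) and not in MCF10AT1 (-0.37 ± 0.14, adjusted p = 0.25). HNRNPC-227 held 3.40% in MCF10A, 7.30% in MCF10AT1 and 18.9% in MCF10Ca1a (adjusted p = 0.014 and 4.4e-05 against MCF10A).

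In HNRNPD, HNRNPD-203 lost share and HNRNPD-202, which has 147 coding bases of its own and lacks 57, gained. HNRNPD-203 held 51.8, 51.0 and 50.6% in MCF10A, 46.7, 48.0 and 46.6% in the MCF10AT1 libraries and 33.1, 30.9 and 36.4% in those of MCF10Ca1a. The MCF10Ca1a libraries were lowest (-1.06 ± 0.10, adjusted p = 0.00022), and HNRNPD-202 stood at 6.02% in MCF10A, 7.03% in MCF10AT1 and 16.1% in MCF10Ca1a (adjusted p = 5.3e-05). TRA2A-201 held 79.2, 77.1 and 75.8% in MCF10A, 70.1, 66.9 and 67.3% in the MCF10AT1 libraries and 44.1, 44.1 and 47.1% in those of MCF10Ca1a. Each line had its own range, and both differences from MCF10A were called (-0.68 ± 0.11 and -2.06 ± 0.11 in MCF10AT1 and MCF10Ca1a, adjusted p = 0.019 and 1.8e-05). The first of these calls was lost without MCF10A replicate 1 or 2 or MCF10AT1 replicate 2 or 3 (adjusted p 0.053 to 0.074). The coding transcript of TRA2A with the largest gain, TRA2A-211, lacks 303 coding bases and was at 0 in 2 MCF10AT1 libraries, and its own change was not called (adjusted p = 0.42). HNRNPH3-202 held 19.4% in MCF10A, 16.7% in MCF10AT1 and 4.47% in MCF10Ca1a (adjusted p = 3.8e-06 in MCF10Ca1a against MCF10A), while HNRNPH3-201, with 45 more coding bases, reached 71.8% from 57.4%.

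CELF1-204 held 21.3, 25.2 and 24.9% in MCF10A, 25.1, 23.8 and 23.8% in the MCF10AT1 libraries and 49.5, 50.0 and 51.5% in those of MCF10Ca1a. It was about equal in MCF10A and MCF10AT1 and far higher in MCF10Ca1a (1.70 ± 0.10, adjusted p = 3.4e-05) while CELF1-201 held 29.2% in MCF10A, 29.8% in MCF10AT1 and 14.2% in MCF10Ca1a (adjusted p = 0.00024). CELF1-204 has 12 coding bases that CELF1-201 lacks, and lacks 3 of that transcript. MBNL1-211 held 19.9, 19.7 and 20.4% in MCF10A, 21.0, 23.2 and 19.6% in the MCF10AT1 libraries and 37.7, 36.4 and 38.9% in those of MCF10Ca1a. The MCF10Ca1a libraries stood above the rest (1.27 ± 0.10, adjusted p = 9.8e-05), and compared with MBNL1-204 this transcript has 54 coding bases of its own and lacks 36. SRSF2-202 held 80.9, 76.2 and 74.1% in MCF10A, 74.8, 77.2 and 72.5% in the MCF10AT1 libraries and 44.0, 43.4 and 47.5% in those of MCF10Ca1a. Its fall in MCF10Ca1a (-2.05 ± 0.16, adjusted p = 0.00011) was accompanied by a rise of SRSF2-203 (14.1% in MCF10A, 16.0% in MCF10AT1 and 29.5% in MCF10Ca1a, adjusted p = 0.00094). By the GENCODE 29 models both have the same coding exons and encode the same protein.

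MBNL2-201 held 78.0, 76.5 and 77.4% in MCF10A, 77.5, 79.6 and 85.0% in the MCF10AT1 libraries and 55.0, 59.6 and 45.1% in those of MCF10Ca1a. The MCF10Ca1a libraries were lower than the others and spread widely (-1.58 ± 0.24, adjusted p = 0.0032). HNRNPLL-209, the main coding transcript of the gene, held 38.7, 36.2 and 39.5% in MCF10A, 41.2, 45.3 and 43.0% in the MCF10AT1 libraries and 12.8, 16.4 and 18.2% in those of MCF10Ca1a. It was lowest in MCF10Ca1a (-1.73 ± 0.17, adjusted p = 0.00036). MBNL3-204 held 16.4, 20.2 and 25.1% in MCF10A, 16.0, 14.6 and 10.8% in the MCF10AT1 libraries and 0, 2.24 and 0% in those of MCF10Ca1a. It was listed at 0 in 2 of the 3 MCF10Ca1a libraries, in a gene of 5.02 ± 0.421 CPM there (adjusted p = 0.0026).

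For some members the replicates disagreed too much to place a transcript. RBFOX2-209 held 47.7, 35.7 and 43.7% in MCF10A, 24.0, 22.1 and 33.3% in the MCF10AT1 libraries and 26.8, 0 and 0% in those of MCF10Ca1a. The MCF10Ca1a libraries disagree with each other, and the difference from MCF10A was not called for this transcript (adjusted p = 0.062). The HNRNPA3 transcript ENST00000676681.1, which has no match in GENCODE 29, held 13.2, 10.4 and 16.1% in MCF10A, 19.4, 15.8 and 16.2% in the MCF10AT1 libraries and 0, 3.06 and 0% in those of MCF10Ca1a. Its difference between MCF10Ca1a and MCF10A (adjusted p = 0.030) was lost without any MCF10A library, or without MCF10Ca1a replicate 1 or 3 (adjusted p 0.074 to 0.085). These tests use the spread between libraries alone, because the uncertainty of assigning reads among similar transcripts is not in the tables used here.

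**Figure D5:**
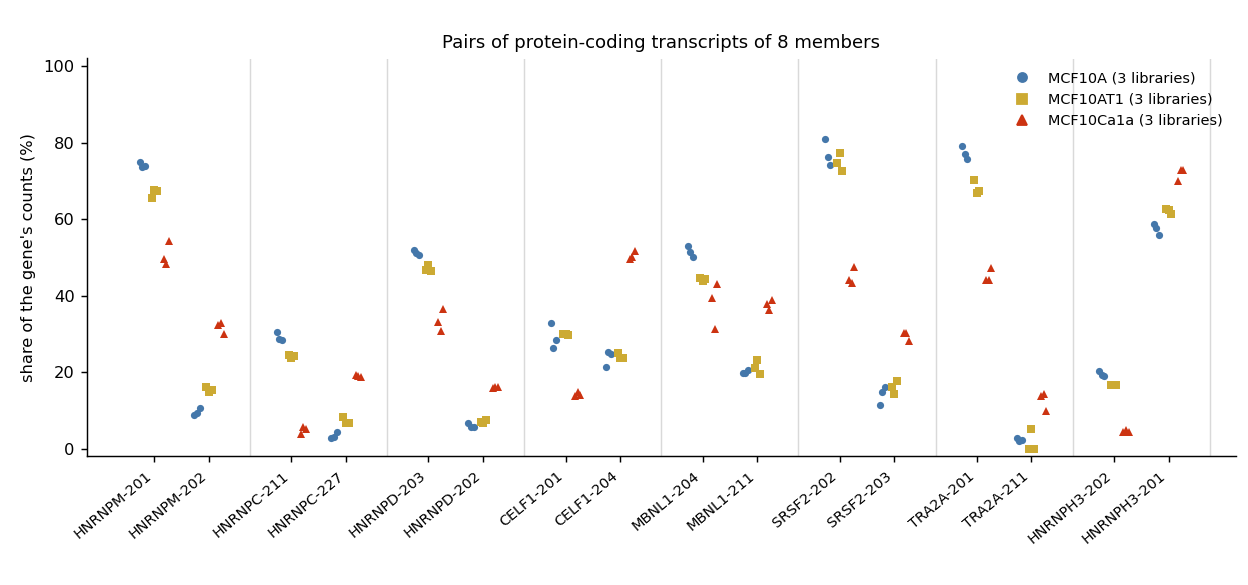
Share of the gene's estimated counts (%, vertical axis) on pairs of coding transcripts of 8 splicing regulators in each library; points are libraries, coloured by line. HNRNPM-201 is lower and HNRNPM-202 higher in MCF10AT1 than in MCF10A and again in MCF10Ca1a, while the CELF1 pair is alike in MCF10A and MCF10AT1 and crosses over in MCF10Ca1a.

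Genes that act on or beside these regulators were called in both directions. Of 8 SR protein kinases tested, which phosphorylate SR proteins, 2 were higher and 4 lower in MCF10Ca1a against MCF10A, and their median log2 change was -0.16. Over all genes tested 39.0% were higher and 41.9% lower in this comparison, and the counts of kinases, core genes and further regulators are to be read against these shares. The largest rise was DYRK1A (0.42, adjusted p = 2.1e-06) and the largest fall PRPF4B (-1.12, adjusted p = 1.1e-09). Among 36 core spliceosome genes 12 were higher and 18 lower, with a median of -0.09. SF3B6, a branch site protein, rose by 1.05 (adjusted p = 3.4e-09), and SNRPD3, a ring protein of the snRNPs, changed by -1.87 (adjusted p = 1.2e-12). Of 31 further splicing regulators, chiefly epithelial and tissue-restricted ones, 18 passed the filter on low counts, and 6 of these were higher and 10 lower. The largest fitted changes among them, NOVA2 and SRRM3, rest on lines at or near the floor: NOVA2 had mean levels of 0.0156 and 0.323 CPM in MCF10A and MCF10Ca1a, and SRRM3 0.243 and 0.0187.

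The 16 NMD factors, which recognise and degrade transcripts with early stops, were mostly lower in MCF10AT1 and mixed in MCF10Ca1a. Against MCF10A, 2 were higher and 9 lower in MCF10AT1, with a median log2 change of -0.25, where 29.8% of all genes were higher and 31.8% lower. In MCF10Ca1a 9 were higher and 5 lower against MCF10A, with a median of 0.34, beside 39.0% and 41.9% of all genes. Against MCF10AT1 11 were higher and 4 lower, beside 38.0% and 40.3%. On log2(TPM + 1) the MCF10Ca1a counts were 10 and 3 against MCF10A, beside 42.2% and 34.5% of all genes, and 12 and 2 against MCF10AT1, beside 45.8% and 28.5%. CASC3, a component of the exon junction complex, had the largest rise (1.67, adjusted p = 3.0e-12) and PNRC2, a decapping adaptor, the largest fall (-1.42, adjusted p = 1.3e-10). Against MCF10A all 6 proliferation markers were lower in MCF10Ca1a, from -0.76 for MCM2 to -3.59 for CCNB1, with a median of -1.82. Depth was also lowest in MCF10Ca1a. With every library thinned to the smallest, the members' counts were again 8 higher and 31 lower in MCF10Ca1a against MCF10A. The part of the markers and factors in the members' levels was not tested.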

How the data were processed

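RNA-seq libraries of 3 cell lines, 3 per line, were analysed from the tables the authors deposited: estimated counts per gene and per transcript, TPM per gene and per transcript, and 2 scaled forms of the gene counts. The submitters' processing notes name Salmon and hg38; the annotation release is not given in the sources used here. The labels' protocols state a stranded mRNA kit with poly-A enrichment. The deposited estimated counts were rounded, genes were kept with filterByExpr by line (minimum count 10, minimum total 15; 17910 of 62666), and edgeR's quasi-likelihood test with TMM (edgeR 4.0.16, R 4.3.3) was fitted to all 9 libraries with line as the only term, adjusted by Benjamini-Hochberg at 0.05. Each standard error is the log2 change divided by the square root of F. CPM are relative to TMM-scaled totals. The deposited TPM values served for levels between genes and as an alternative scale. A line at or under 3 counts in every library was taken as at its floor, and folds against it are bounds for counting error alone, as the reads carry no molecular identifiers.

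Transcript shares were tested with limma 3.58.1 on log2((transcript + 0.5)/(rest of gene + 0.5)) for 73815 transcripts, with Simes p over the transcripts of a gene. The class test (nonproductive against coding, at least 10 counts of each in 3 libraries) was to be run over all genes if 80% of the members' transcripts matched GENCODE 29 by unversioned identifier. Only 73.4% did, so it was run on genes with 95% of counts matched in every library, a restriction chosen after the match was seen. SRSF6, with 88.6% of counts matched, is therefore outside it. Exon sequences were read from GRCh38.

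Members and lists were chosen with earlier results of these data known. Values in every library are given for the 12 members with the largest called log2 change, the 15 with the largest transcript share change of at least 10 points, the 8 with the largest called change of nonproductive share, and a few others added after their values were seen (SRSF4, MBNL2, CELF1, PTBP3, TRA2B-206, RBM39-206, RBM39-216 and similar). Of each gene list the largest called rise and fall are named. Rows named as pseudogenes of members (134, for 20 members) held at most 1.09% of a member's counts plus its own. On simulated data for MCF10Ca1a against MCF10A with 200 changed genes or transcripts, edgeR recovered 196 of 200 with 12 false calls among 17419 genes, the share test 197 with 20 among 11802, and the class test 198 with 13 among 11415. Simulated gene changes were 2-fold or 4-fold. In the data 80.9% of genes were called, and 50.0% for usage, so scaling and false calls were not tested at that extent of change. The simulated class test set the second transcript of a gene against its most abundant, not annotated classes. Alternatives were DESeq2 1.42.0, other scalings, TPM, filters, thinning, a replicate block, diffSpliceDGE, glmTreat and leaving out each library. Values of a few listed genes are not reported here.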

Additional observations from a re-analysis of the deposited data

How the results depend on the processing

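On counts, no member called in MCF10Ca1a against MCF10A reversed its direction under any alternative but TPM, where RBM39 stood at 0.025. Between MCF10Ca1a and MCF10AT1, TPM (log2 of TPM + 1, of TPM + 0.1, or unfiltered) reversed SRSF9 (0.14), TRA2A (0.14), PTBP1 (0.011), MBNL1 (0.11) and RBFOX2 (0.15 with 0.1 and 0.14 otherwise), and TPM shares reversed the nonproductive log2 ratio of SRSF4 (0.066). TPM gave 4 members higher in MCF10AT1 than in MCF10A under its 3 settings, and between MCF10Ca1a and MCF10AT1 8 higher under the filtered settings and 21, 21 and 20 lower. The cause of these shifts was not tested. A required change of at least 2-fold (edgeR's glmTreat) left 1 member called in MCF10AT1 against MCF10A (0 higher, 1 lower), 13 in MCF10Ca1a against MCF10A (1 higher, 12 lower) and 8 against MCF10AT1 (0 higher, 8 lower). DESeq2 called 25, 39 and 35 members in these comparisons. The shares of all genes called by glmTreat and by DESeq2 are not given here, so these counts cannot be read against a background. For transcript usage, edgeR's diffSpliceDGE called 5 members in MCF10AT1 against MCF10A and 21 in MCF10Ca1a against MCF10AT1, and the requirement of 10 points left 0, 23 and 20. For nonproductive shares in MCF10AT1 against MCF10A, NMD transcripts by themselves gave 2 and retained introns 0; retained introns gave 8 in MCF10Ca1a against MCF10AT1.

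Leaving out 1 library gave 20 to 31 members called in MCF10AT1 against MCF10A (7 to 10 higher, 13 to 23 lower), 38 to 39 in MCF10Ca1a against MCF10A (8 higher, 30 to 31 lower) and 34 to 38 against MCF10AT1 (4 higher, 30 to 34 lower). Usage calls ranged over 3 to 11, 34 to 36 and 32 to 35, and calls of nonproductive share over 0 to 1, 11 to 13 and 9 to 14. Replicate numbers do not pair the libraries by any label, and deviations of same-numbered libraries correlated between -0.06 and 0.05. With a replicate block, 22, 39 and 36 members were called, usage calls were 1, 35 and 32, and calls of nonproductive share 0, 12 and 10. Thinned to the smallest library, 24, 39 and 36 members were called. MCF10Ca1a libraries were the shallowest, which limits scarce transcripts there. The class test planned for all genes was not run.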

Other observations

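Genes whose alternative exons are textbook targets of these regulators were listed beside them, and 26 could be tested for transcript usage, among them PTBP2, itself a member. In MCF10Ca1a against MCF10A usage was called in 22 of the 26, where 50.0% of all genes were called. In MCF10AT1 against MCF10A 9 of the 26 were called (10.5% of all genes), and in MCF10Ca1a against MCF10AT1 19 (42.9%). The median largest share change in these comparisons was 10.5, 6.05 and 7.23 points for the 26, and 7.97, 4.26 and 7.07 for all genes. No comparison matched on abundance was made, and counts with a library left out are not given for the 26. The genes named next were chosen after their values were seen. TPM1, a tropomyosin with many tissue-specific exons, used TPM1-206 for 48.5, 48.2 and 47.4% of its counts in MCF10A, 18.2, 18.4 and 17.6% in the MCF10AT1 libraries and 57.5, 56.8 and 64.3% in those of MCF10Ca1a. The MCF10AT1 libraries were far below both other lines, which do not overlap either. CD44-201, of the hyaluronan receptor whose variable exons differ between epithelial and mesenchymal cells, held 60.4, 59.9 and 60.6% in MCF10A, 47.7, 47.9 and 50.3% in the MCF10AT1 libraries and 19.8, 20.1 and 19.5% in MCF10Ca1a (limma, adjusted p = 0.0013 and 3.4e-07 against MCF10A).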
